A study of Mus musculus with 20 samples.

Results

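The subject here is the response to morphine that 2 nervous tissues of the same mice had in common. For every gene the effect of morphine (OIH minus VehicleOIH libraries) was taken in the trigeminal ganglia (TG) and in the nucleus accumbens (NAc), and the mean of the 2 effects was measured. It used all 20 of the 20 libraries of the series, 10 from TG and 10 from NAc, and the 2 libraries of a mouse were treated as 1 unit, which left 5 morphine mice (M1 to M5) and 5 vehicle mice (V1 to V5). All mice were male C57BL/6J animals 9 to 12 weeks old, without a transgene or deletion named in the labels, and RNA was taken 24 h after the last injection. The morphine mice carry the treatment label OIH, the abbreviation of opioid-induced hyperalgesia, in which opioid treatment raises sensitivity to pain, and the control mice carry the label Vehicle. The sources used here name neither dose, number of injections nor the hour of the day at which tissue was taken. Expected counts per RefSeq transcript, estimated by the authors, were summed per gene by RefSeq identifier.

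Sensory neurons that serve the face have their cell bodies in the TG, among satellite glia and Schwann cells, and the NAc is the part of the ventral striatum in which dopamine and opioid signals meet. Most of the named genes called for the mean of both tissues belong to the circadian clock. In that clock the activators BMAL1 (gene Arntl) and CLOCK bind E-box elements and switch on their own repressors, the period, cryptochrome and CIART proteins, as well as output factors such as DBP and TEF. REV-ERB alpha and beta (Nr1d1 and Nr1d2) in turn repress Arntl, so repressors and outputs normally run opposite to Arntl over the day, and nearly every tissue keeps such a clock.

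Each TG library held 61285916 to 76110288 counts and each NAc library 52402037 to 64357778, and 27077 features were tested, 18087 of them named genes. The tissues carried their defining markers: a list of 14 medium spiny neuron genes summed to 239.8 to 264 CPM (counts scaled to the library total) in TG and to 4273 to 8496 in NAc, and 16 sensory neuron genes to 8812 to 9646 CPM in TG and to 526.3 to 643 in NAc. The NAc libraries of vehicle mice V2 and V5 stood apart, with a median Spearman correlation to the other NAc libraries of 0.965 and 0.972 against 0.978 to 0.987 for the rest. Their medium spiny neuron sums were the lowest (4273 CPM) and the highest (8496 CPM) of the 10 NAc libraries. The labels do not say which libraries ran on the earlier and which on the later sequencing lanes, so no such batch could be examined. RNA of whole tissue cannot tell fewer cells of a type from less RNA per cell.

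A small group of genes rose after morphine in the mean of both tissues, and 5 of the 6 named ones were clock genes. In limma's test on the 10 mouse values with Benjamini-Hochberg adjustment, 8 of 27077 features passed an adjusted p of 0.05 for the mean effect (0.0295%), all 8 higher after morphine and each with the same sign in both tissues. They were the clock genes Ciart (log2 fold change 1.02 ± 0.09, SE), Dbp (0.81 ± 0.06), Per3 (0.48 ± 0.05), Tef (0.32 ± 0.03) and Nr1d2 (0.27 ± 0.03), the membrane transporter gene Abca8b (0.20 ± 0.03), and 2 RefSeq transcripts without a gene match. No feature passed in the lower direction (0%), where 1189 features had an unadjusted p under 0.05 (4.39%). In the higher direction 1153 had one (4.26%), 8.65% in all. The split depended on the features tested. With named genes alone 16 passed the adjusted threshold higher and 17 lower, and with a mean of at least 1 CPM in each tissue 12 and 8. Within single tissues limma called 88 features in TG (0.325%), 73 higher (0.27%) and 15 lower (0.0554%), where 10.5% had an unadjusted p under 0.05, and 0 in NAc (0%), where 1706 had one (6.3%). Tests fitted on the 20 libraries in place of the 10 mouse values called more. In edgeR's quasi-likelihood test 41 features were higher and 36 lower. In limma voom with the mouse as a random block 38 and 36 were, and in DESeq2 230 and 235. The edgeR and DESeq2 fits had no term for the mouse, so the 2 libraries of a mouse counted as separate replicates. Calls of these 2 tests, here and below, therefore do not treat the mouse as 1 unit. In log2 CPM the consensus correlation of the 2 libraries of a mouse was -0.005. A block correlation this near 0 leaves the libraries of a mouse nearly separate replicates in limma voom as well. Over all features the median mean effect was 6.6e-05 on the log2 scale, with 50.03% of features positive. The TMM scaling itself brings most features near 0, so this median is no separate evidence of a centre at 0. With library size alone it was -0.00974, with 45.88% positive. Clock genes change over the day, and since the hour of collection of either group is not named, a difference in that hour cannot be told apart from the treatment.

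The promoters of the called genes are shown because the clock acts through short elements in them. The windows are from RefSeq (GRCm38.p6) and run from 250 bases before to 50 bases after an annotated transcript start. The E-box CACGTG, which reads the same on both strands, occurred in windows of 3 of the 6 called genes (Ciart, Tef and Abca8b) and of 5 of the 11 clock repressor and output genes with a window, against 8.09% of all 27025 genes with a window. The variant CACGTT occurred in 0 of the 6 and in 3 of the 11 (Cry1, Cry2 and Nr1d1), against 5.44%. The D-box (TTATGTAA or TTACGTAA, both strands), the element that DBP and TEF bind, occurred in 1 of the 6, Per3, against 1.23% of genes. The windows below are chr3:95882179-95882478 (Ciart, minus strand), chr15:81802423-81802722 (Tef, plus strand), chr11:109995796-109996095 (Abca8b, minus strand) and chr4:151044616-151044915 (Per3, minus strand), with E-boxes in capitals in the first 3 and D-boxes in Per3.
Ciart: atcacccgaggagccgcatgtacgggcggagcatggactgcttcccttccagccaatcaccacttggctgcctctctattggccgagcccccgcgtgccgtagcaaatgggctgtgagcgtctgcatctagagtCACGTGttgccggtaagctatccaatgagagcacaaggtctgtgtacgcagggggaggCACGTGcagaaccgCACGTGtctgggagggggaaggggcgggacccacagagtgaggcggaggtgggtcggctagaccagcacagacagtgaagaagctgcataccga
Tef: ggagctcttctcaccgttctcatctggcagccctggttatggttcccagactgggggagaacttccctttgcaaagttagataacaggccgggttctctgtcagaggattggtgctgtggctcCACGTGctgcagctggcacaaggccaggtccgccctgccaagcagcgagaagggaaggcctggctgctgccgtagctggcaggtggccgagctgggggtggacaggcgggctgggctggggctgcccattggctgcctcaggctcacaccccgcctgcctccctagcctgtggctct
Abca8b: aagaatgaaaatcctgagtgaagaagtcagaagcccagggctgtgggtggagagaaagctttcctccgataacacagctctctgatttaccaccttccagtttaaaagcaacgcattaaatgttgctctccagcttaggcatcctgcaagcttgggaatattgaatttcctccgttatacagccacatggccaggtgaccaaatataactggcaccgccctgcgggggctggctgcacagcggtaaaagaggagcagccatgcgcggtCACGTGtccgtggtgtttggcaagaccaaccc
Per3: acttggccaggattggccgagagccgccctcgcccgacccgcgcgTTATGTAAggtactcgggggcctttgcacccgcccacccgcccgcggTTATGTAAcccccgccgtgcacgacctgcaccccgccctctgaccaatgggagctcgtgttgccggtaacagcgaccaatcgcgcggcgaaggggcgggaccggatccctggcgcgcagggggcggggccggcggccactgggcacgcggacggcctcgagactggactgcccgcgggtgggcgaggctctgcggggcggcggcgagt
The 3 E-boxes of Ciart, that of Tef and both D-boxes of Per3 lie upstream of the start, and that of Abca8b lies past it. A match describes letters only and says nothing of what is bound there.

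Ciart (gene 229599, GRCm38.p6 chromosome 3, 95878500 to 95882257) encodes a repressor that binds BMAL1 and dampens its activity. In TG it was measured at 2.02, 1.52, 1.89, 1.69 and 2.103 CPM in vehicle mice V1 to V5 and 4.78, 4.45, 4.07, 4.4997 and 3.77 CPM in morphine mice M1 to M5. In NAc it was measured at 8.2998, 7.07, 7.26, 7.62 and 6.95 CPM in vehicle mice V1 to V5 and 14.6, 13.9, 15.1, 12.4 and 10.3 CPM in morphine mice M1 to M5. Every morphine library exceeded every vehicle library of its tissue. The mean effect of 1.02 ± 0.09 (adjusted p = 0.00608) was made of 1.22 ± 0.11 in TG and 0.82 ± 0.11 in NAc.

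Dbp (gene 13170, chromosome 7, 45705100 to 45710203) encodes a transcription factor that carries the rhythm of the clock to D-box genes and is among its strongest outputs. Its TG libraries held 14.8, 18.98, 16.7, 17.3 and 16.5 CPM in vehicle mice V1 to V5 and 38.5, 33.8, 39.8, 43.2 and 33.8 CPM in morphine mice M1 to M5. Its NAc libraries held 103, 71.4, 81.3, 96.7 and 109.7 CPM in vehicle mice V1 to V5 and 131, 130.1, 142, 118 and 112 CPM in morphine mice M1 to M5. The TG groups were far apart, and in NAc the lowest morphine library, M5, lay above the highest vehicle library, V5. The effect was 1.16 ± 0.08 in TG and 0.47 ± 0.12 in NAc, and the mean 0.81 ± 0.06 (adjusted p = 0.0025).

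Per3 (gene 18628, chromosome 4, 150997018 to 151044707) is the period gene most closely tied to output and sleep timing. In TG its level was 41.4, 40.7, 41.1, 39.02 and 35.3 CPM in vehicle mice V1 to V5 and 60.96, 61.4, 64.6, 65.3 and 55.7 CPM in morphine mice M1 to M5. In NAc its level was 75.02, 64.97, 64.8, 65.3 and 62.5 CPM in vehicle mice V1 to V5 and 82.96, 86.1, 83.7, 84.9 and 79.6 CPM in morphine mice M1 to M5. The groups did not overlap in either tissue, and V1 was the highest of the NAc vehicle libraries. The effect was 0.64 ± 0.06 in TG, 0.33 ± 0.05 in NAc and 0.48 ± 0.05 in the mean (adjusted p = 0.00912).

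Tef (gene 21685, chromosome 15, 81802673 to 81826863) encodes a PAR bZIP factor of the same family as DBP. TG libraries had 142, 145, 148, 142 and 139 CPM in vehicle mice V1 to V5 and 172, 184, 183, 187 and 170.5 CPM in morphine mice M1 to M5. NAc libraries had 469, 363, 428, 434 and 476 CPM in vehicle mice V1 to V5 and 534, 547, 553, 526 and 527 CPM in morphine mice M1 to M5. Here too no morphine library overlapped a vehicle library of its tissue, and V2 was the lowest in NAc. The tissues gave 0.32 ± 0.03 and 0.31 ± 0.07, and the mean was 0.32 ± 0.03 (adjusted p = 0.0205).

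Nr1d2 (gene 353187, chromosome 14, 18204056 to 18239106) encodes REV-ERB beta, a heme-binding repressor of Arntl. Its level in TG was 138, 147, 140.1, 124 and 132 CPM in vehicle mice V1 to V5 and 153, 172, 169, 168 and 156 CPM in morphine mice M1 to M5. Its level in NAc was 162, 166, 167, 162 and 173 CPM in vehicle mice V1 to V5 and 203, 199, 210.5, 202 and 193 CPM in morphine mice M1 to M5. The lowest morphine library lay above the highest vehicle library in both tissues. The effects were close, 0.26 ± 0.05 in TG and 0.28 ± 0.04 in NAc, and the mean was 0.27 ± 0.03 (adjusted p = 0.0306).

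Abca8b (gene 27404, chromosome 11, 109932206 to 109996274) encodes a lipid transporter of the ABC family and was the named called gene outside the clock lists. In TG it stood at 124, 124, 112, 126 and 103 CPM in vehicle mice V1 to V5 and 128, 135, 143, 135 and 157 CPM in morphine mice M1 to M5. In NAc it stood at 40.1, 41.6, 45.5, 44.1 and 49.5 CPM in vehicle mice V1 to V5 and 51.98, 47.3, 50.7, 49.6 and 46.04 CPM in morphine mice M1 to M5. The mouse values, the geometric mean of the 2 libraries, did not overlap (70.5 to 74.5 CPM in vehicle and 80.1 to 85.1 CPM in morphine mice), although the libraries did within NAc. The mean effect was 0.20 ± 0.03 (adjusted p = 0.0419), with 0.24 ± 0.07 in TG and 0.16 ± 0.06 in NAc. The 2 transcripts without a gene match had mean effects of 0.90 ± 0.10 (XM_011240094.2, adjusted p = 0.0286) and 0.74 ± 0.09 (XM_006496949.3, adjusted p = 0.0287). The CPM of every library for the 6 named genes are plotted below.

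**Figure D1:**
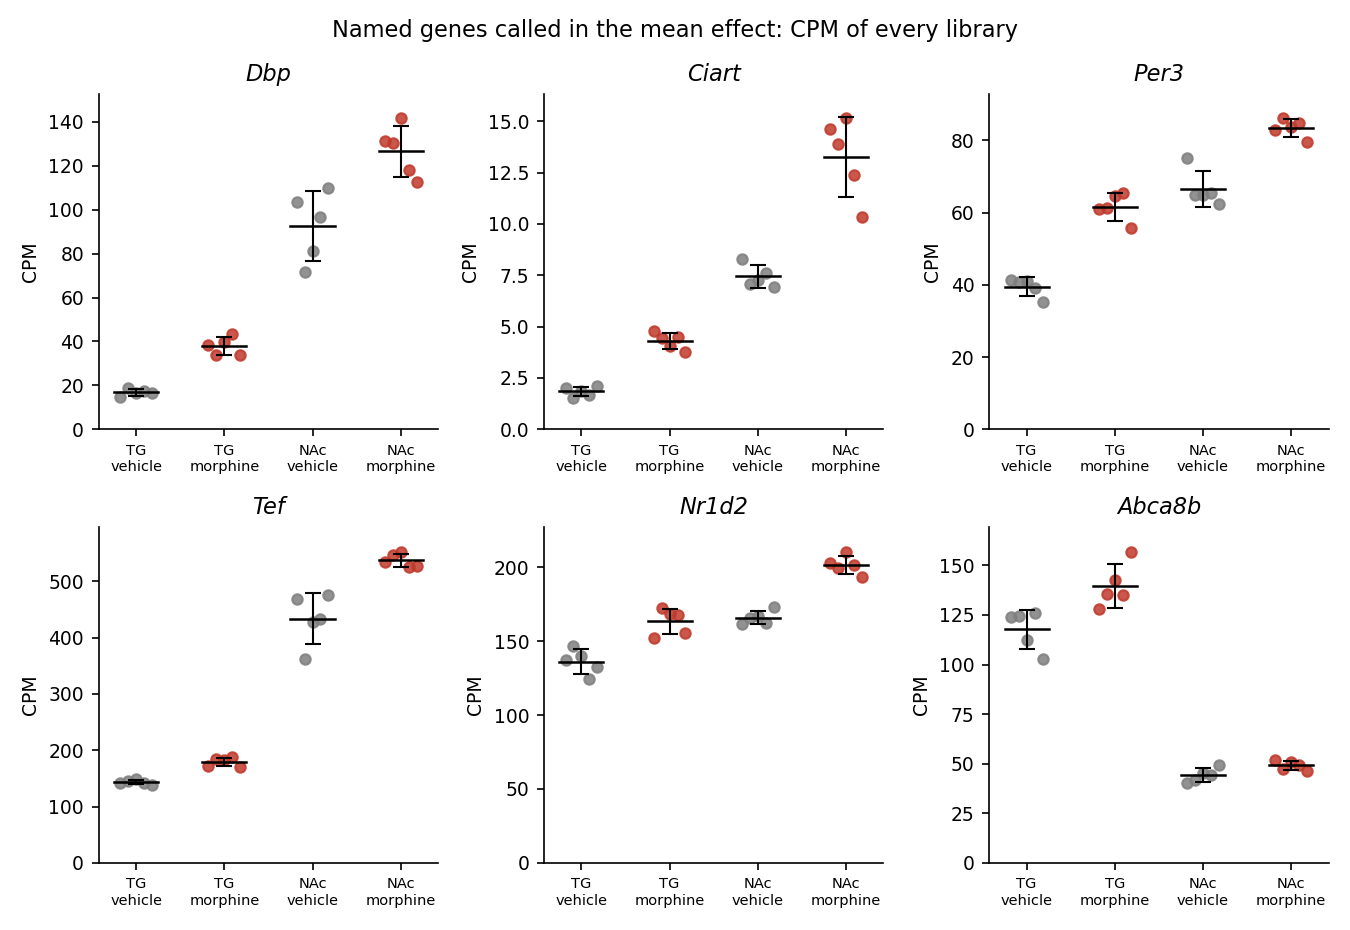
CPM of Dbp, Ciart, Per3, Tef, Nr1d2 and Abca8b (y axes, from 0) in the 5 libraries of each of the 4 groups (x axes), with grey points for vehicle, red points for morphine and black lines for the mean ± SD. In the 5 clock genes no morphine library overlaps a vehicle library of its tissue, and the step of Dbp and Ciart is the tallest relative to the vehicle level.

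How firmly these calls stood differed between genes. Dbp and Ciart were called without each of the 10 mice in turn. Per3 was lost without M1 (adjusted p = 0.05004), M4 (0.0541) or V3 (0.0509), and Tef without M1 (0.05004), M2 (0.0674), M3 (0.0621), M4 (0.101) or V3 (0.0707). Nr1d2 was lost without M1 (0.0513), M2 (0.101), M3 (0.0932), M4 (0.124), V1 (0.0845), V3 (0.0783) or V5 (0.0594), and Abca8b was kept only without V4 (0.0449), with 0.0674 to 0.140 without any other mouse. The number of called features was 2 without M1, M4 or V3 and 5 without M2, M3 or V1. Without vehicle mice V2 and V5 together 7 features were called, with Dbp, Ciart, Per3 and Tef at an adjusted p of 0.0411, Nr1d2 at 0.0832 and Abca8b at 0.124.

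The other clock repressors and outputs lay on the same side. All 13 genes of the list, the 5 called ones included, were tested, and all 13 had a positive effect in TG and in NAc. The adjusted threshold was passed by 5, against 0.0295% of all features. All 13 had an unadjusted p under 0.05, against 4.26% of all features in the higher direction. The mouse values of 9 of the 13 did not overlap between the groups, which held in the higher direction for 1.23% of all features, as it did in the lower direction, 2.46% in all. The median effect of the list was 0.34 in the mean, 0.41 in TG and 0.28 in NAc. The list was written with earlier results of these data known and includes the 5 called genes. These counts therefore describe the list and carry no test. In edgeR and in limma voom on 20 libraries, 8 of the 13 passed the adjusted threshold, which added Nr1d1, Per2 and Bhlhe41, and in DESeq2 11 passed.

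Nr1d1 (gene 217166), which encodes REV-ERB alpha, had 40.4, 41.7, 43.5, 45.8 and 44.2 in vehicle mice V1 to V5 and 53.2, 53.2, 59.6, 55.7 and 51.7 in morphine mice M1 to M5 as the geometric mean CPM of both tissues. These did not overlap, and the mean effect was 0.34 ± 0.05 (adjusted p = 0.0623), with 0.47 ± 0.07 in TG and 0.22 ± 0.08 in NAc. Per2 (gene 18627), a repressor that also responds to light and glucocorticoids, had 33.998, 31.98, 42.9, 38.5 and 39.9 in V1 to V5 and 48.96, 55.7, 62.9, 55.1 and 48.1 in M1 to M5. Its groups did not overlap either, and its effect was 0.53 ± 0.10 (adjusted p = 0.125), 0.74 ± 0.09 in TG and 0.32 ± 0.15 in NAc. Bhlhe41, which competes for E-boxes, had 48.2, 44.9, 47.6, 50.996 and 53.5 in V1 to V5 and 57.3, 58.4, 60.01, 58.7 and 57.3 in M1 to M5, with an effect of 0.25 ± 0.04 (adjusted p = 0.103) that was close in TG (0.23 ± 0.07) and NAc (0.28 ± 0.06). Hlf, the third PAR bZIP factor, had 0.42 ± 0.10 (unadjusted p = 0.0015). The cryptochrome genes Cry1 (0.23 ± 0.06, unadjusted p = 0.00437) and Cry2 (0.16 ± 0.05, unadjusted p = 0.00741), Bhlhe40 (0.22 ± 0.09, unadjusted p = 0.0275) and Per1 (0.35 ± 0.14, unadjusted p = 0.0366) had mouse values that overlapped between the groups.

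The activators and genes of the opposite phase did not form such a group. Of 9 tested, 3 effects were positive and 6 negative, 0 passed the adjusted threshold in limma, edgeR or limma voom and 1 (Arntl) in DESeq2, and the median was -0.03. Arntl (gene 11865), which encodes BMAL1, had 16.7, 12.6, 15.9, 13.2 and 20.6 as the geometric mean CPM in V1 to V5 and 12.1, 11.3, 10.97, 11.1 and 10.1 in M1 to M5. The highest morphine mouse, M1, stood below the lowest vehicle mouse, V2, and the mean effect was -0.49 ± 0.12 (unadjusted p = 0.0027, adjusted p = 0.255). It was -0.81 ± 0.15 in TG and -0.16 ± 0.16 in NAc, where V2 had 24.2 CPM and V5 51.1 CPM and the other 8 libraries 27.9 to 33.7. Nfil3, a repressor of D-box genes, had -0.19 ± 0.07 (unadjusted p = 0.0231). Clock (0.02 ± 0.02), Npas2 (0.02 ± 0.14), Rora (-0.00 ± 0.06), Rorb (-0.03 ± 0.17), Arntl2 (-0.03 ± 0.06) and E2f8 (-0.23 ± 0.17) each had an unadjusted p over 0.05.

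The window of Arntl at chr7:113207261-113207560 (plus strand, RefSeq, GRCm38.p6) is shown because REV-ERB proteins repress this gene through elements of the kind TAGGTCA or TGGGTCA, here searched on both strands and in capitals.
Arntl: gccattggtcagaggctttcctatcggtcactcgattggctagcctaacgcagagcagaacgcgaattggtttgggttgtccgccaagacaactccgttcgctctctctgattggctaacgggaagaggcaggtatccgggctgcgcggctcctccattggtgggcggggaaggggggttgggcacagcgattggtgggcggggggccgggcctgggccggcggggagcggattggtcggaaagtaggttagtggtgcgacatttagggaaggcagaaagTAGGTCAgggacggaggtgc
This element, past the annotated start, was in 7.35% of all genes with a window, in windows of 2 of the 8 activator genes with one (Arntl and Nfil3) and in 0 of the 11 repressor and output genes.

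**Figure D2:**
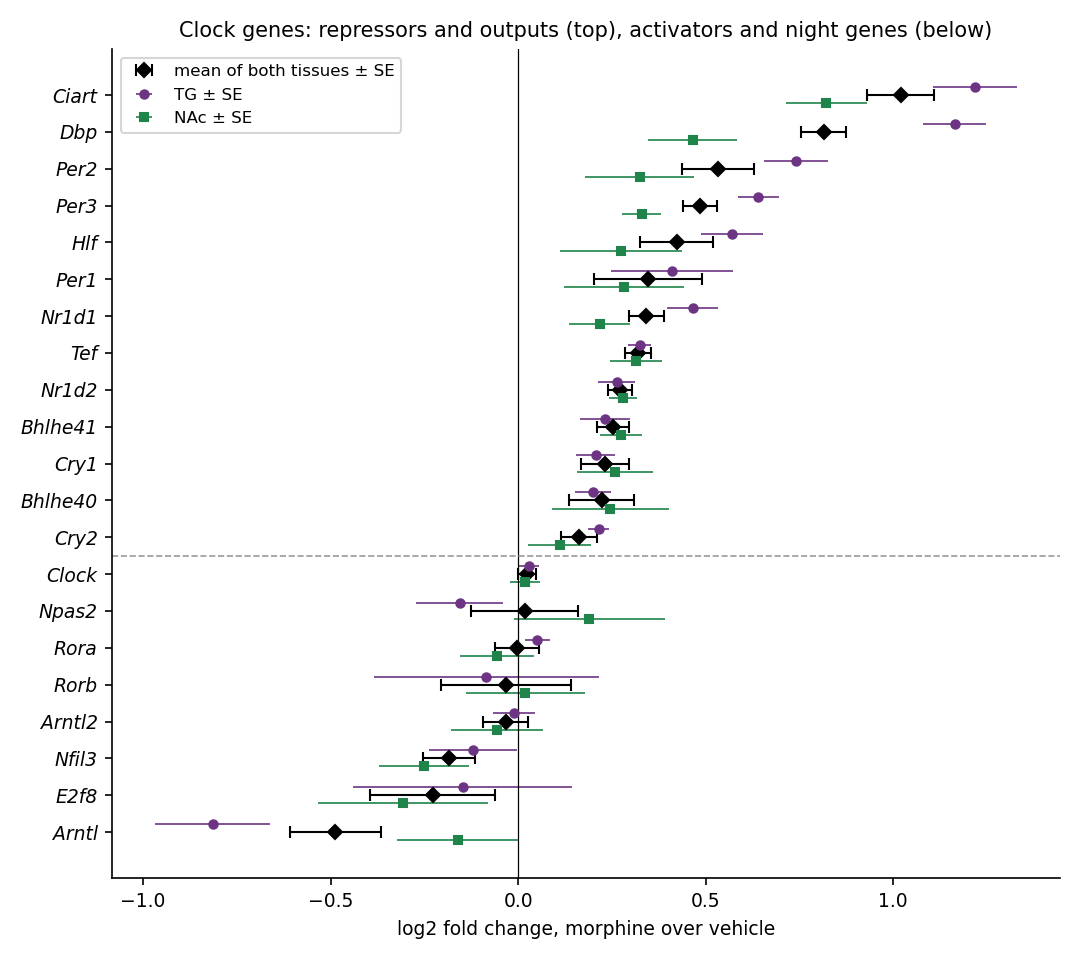
Log2 fold change of morphine over vehicle (x axis) for the 13 clock repressors and outputs and 8 activators and night genes (y axis), with black diamonds for the mean of both tissues, purple points for TG and green squares for NAc, each ± SE. The 13 repressors and outputs lie right of 0 in both tissues, and Arntl lies furthest left.

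Taken per mouse, the list of 13 separated the treatments in each tissue. Its level, the mean log2 CPM difference from the vehicle mean, was 0.51, 0.49, 0.56, 0.57 and 0.42 in TG of M1 to M5 and -0.05, 0.01, 0.05, 0.01 and -0.02 in V1 to V5. In NAc it was 0.33, 0.36, 0.50, 0.27 and 0.16 in M1 to M5 and 0.08, -0.22, 0.06, 0.04 and 0.05 in V1 to V5. Neither tissue had an overlap, V2 lay below the other vehicle mice in NAc, M3 was the highest morphine mouse in NAc, and M5 was the lowest in both tissues. These levels describe genes chosen with earlier results known and carry no test.

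**Figure D3:**
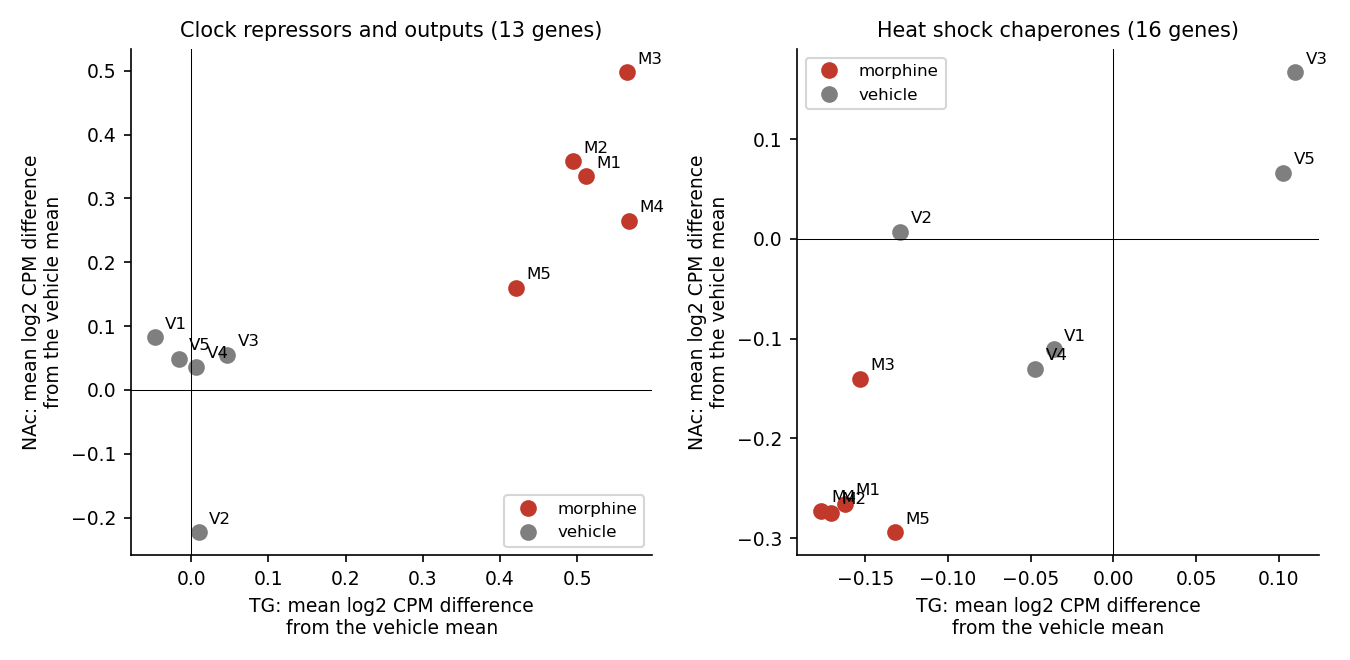
Level of the 13 clock repressors and outputs (left) and of the 16 heat shock chaperones (right) in each mouse, as the mean log2 CPM difference from the vehicle mean in TG (x axis) and in NAc (y axis), with red points for morphine and grey points for vehicle mice. Morphine mice lie apart from vehicle mice on both axes in the clock panel and in the lower left corner of the chaperone panel.

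Whether the tissues responded by different amounts was tested on the TG minus NAc difference of each mouse. In limma 0 of 27077 features passed (0%), the lowest adjusted p was 0.404, and 1632 had an unadjusted p under 0.05 (6.03%). In edgeR with the mouse as a block 1 feature passed, as did 1 without V2 and V5, and 5 passed without M4, against 0 or 1 without any other mouse. Among the called clock genes Per3 (unadjusted p = 0.0012), Dbp (0.00462) and Ciart (0.0161) had effects larger in TG by 0.31 ± 0.07, 0.70 ± 0.19 and 0.40 ± 0.14, whereas Tef (0.01 ± 0.11, unadjusted p = 0.93), Nr1d2 (-0.02 ± 0.07, 0.8) and Abca8b (0.09 ± 0.13, 0.52) did not reach 0.05. None of the 6 passed after adjustment.

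By the smallest p in this test 6 genes were named. Lnpep, which encodes an aminopeptidase that cleaves oxytocin and vasopressin, had a TG effect of 1.32 ± 0.15 and an NAc effect of -0.14 ± 0.10 (difference 1.46 ± 0.19, adjusted p = 0.404). Zfp292, a zinc finger gene with a very long exon, had 1.58 ± 0.17 and -0.31 ± 0.19 (difference 1.89 ± 0.27, adjusted p = 0.424). The other 4 were predicted genes, Gm9199 (difference 0.97 ± 0.15) on the side of TG and Gm33320 (-0.64 ± 0.08), Gm6654 (-0.53 ± 0.09) and Gm15558 (-0.74 ± 0.13) on the side of NAc.

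By adjusted p the next genes in the lower direction were Prelp, Col3a1, Serpinb1a, Fabp7 and Slc16a1. Each passed in limma with named genes alone (adjusted p = 0.0248 to 0.0493) and with a mean of at least 1 CPM in each tissue (0.03865 to 0.0480). Col3a1 (-0.58 ± 0.10 in TG, -0.49 ± 0.11 in NAc) and Fabp7 (-0.68 ± 0.06 and -0.45 ± 0.16) had negative effects in both tissues, whereas the means of the other 3 came from NAc. Prelp, a matrix proteoglycan gene, had a mean of -0.31 ± 0.04 (adjusted p = 0.0623) made of -0.64 ± 0.07 in NAc and 0.01 ± 0.07 in TG. Serpinb1a, a protease inhibitor gene (-0.31 ± 0.04, adjusted p = 0.0721), had -0.59 ± 0.08 in NAc and -0.03 ± 0.04 in TG. Slc16a1, the lactate transporter MCT1 (-0.19 ± 0.03, adjusted p = 0.0721), had -0.35 ± 0.06 and -0.04 ± 0.03. In NAc these genes stood at 12.1 ± 0.834, 8.498 ± 0.824 and 30.7 ± 2.5997 CPM in vehicle mice (mean ± SD, n = 5), and in TG at 17.9 ± 1.45, 69.01 ± 3.95 and 78.1 ± 2.03.

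The share of transcripts of the other tissue in a library differed between treatments. It is the summed CPM of such genes in percent of their summed mean CPM in their own tissue. In NAc libraries, 51 genes at least 200 times higher in TG stood at 0.193% ± 0.029 of their TG level in morphine mice. In vehicle mice they stood at 0.397% ± 0.105 (SD, n = 5, exact permutation test, 2-sided, p = 0.0159). In TG libraries, 71 genes at least 200 times higher in NAc stood at 0.323% ± 0.033 and 0.243% ± 0.038 of their NAc level (exact p = 0.0238, where the smallest possible is 0.00794). The Schwann cell and sensory neuron lists, which stand higher in TG, had median effects of -0.41 and -0.39 in NAc and of 0.03 and -0.03 in TG. Of 11 Schwann cell genes 6 had an unadjusted p under 0.05 in the lower direction, against 4.39% of all features. Among them was Prx, with -0.77 ± 0.18 in NAc and 0.09 ± 0.07 in TG. Its mean of -0.34 ± 0.09 became 0.03 when the counts of a mouse were added up. Of 15 sensory neuron genes 8 had an unadjusted p under 0.05 in the lower direction. Among them were Avil, with -0.91 ± 0.21 in NAc and -0.03 ± 0.03 in TG, and Prph, with -1.07 ± 0.31 and -0.02 ± 0.05. Of 13 medium spiny neuron genes 9 were positive and 4 negative in TG (median 0.21) and 13 of 13 positive in NAc (median 0.21). For the mean 3 had an unadjusted p under 0.05, all higher, against 4.26% of all features in that direction. In TG the members Gad1 (0.89 ± 0.27) and Gad2 (0.76 ± 0.16) had positive effects, against 0.08 ± 0.09 and 0.15 ± 0.17 in NAc. The group means of the 5 called clock genes were 1.84 CPM or more in each tissue, and the part of the other tissue's RNA in any single effect was not tested.

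A count that needs both tissues gives another view of what was shared. With an unadjusted p under 0.05 in each tissue, 163 features had effects of the same sign (0.602%), 83 higher (0.307%) and 80 lower (0.295%), and 61 had opposite signs (0.225%), 32 higher in TG and lower in NAc (0.118%) and 29 the reverse (0.107%). With library size alone as the scaling the split of the 163 became 58 higher and 105 lower. Without V2 and V5 there were 192 in the same direction, 103 higher and 89 lower, and 74 opposite. Ordered by the larger of the 2 tissue p-values, the first 10 in the higher direction began with Ciart, Per3, Nr1d2 and Tef, with Dbp as the sixth and Bhlhe41 as the eighth. The list of 13 clock genes supplied 8 of the 83.

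The 4 genes outside the clock in that order were Fam76a, Uggt2, Fkbp5 and Rbm3. Fkbp5, a co-chaperone of the glucocorticoid receptor and a standard target of it, had 47.3, 47.9, 52.8, 56.6 and 53.6 as the geometric mean CPM in V1 to V5 and 58.3, 59.5, 64.3, 63.5 and 66.8 in M1 to M5. The groups did not overlap, and the effects were 0.28 ± 0.08 in TG and 0.27 ± 0.07 in NAc (mean 0.28 ± 0.06, adjusted p = 0.185). Uggt2, which senses misfolded glycoproteins, had 0.30 ± 0.08 and 0.23 ± 0.05, and Fam76a had 0.19 ± 0.04 and 0.13 ± 0.03. In edgeR on 20 libraries Fam76a (adjusted p = 0.00522), Uggt2 (0.0256) and Fkbp5 (0.0413) passed for the mean effect, and Rbm3 did not (0.05995).

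**Figure D4:**
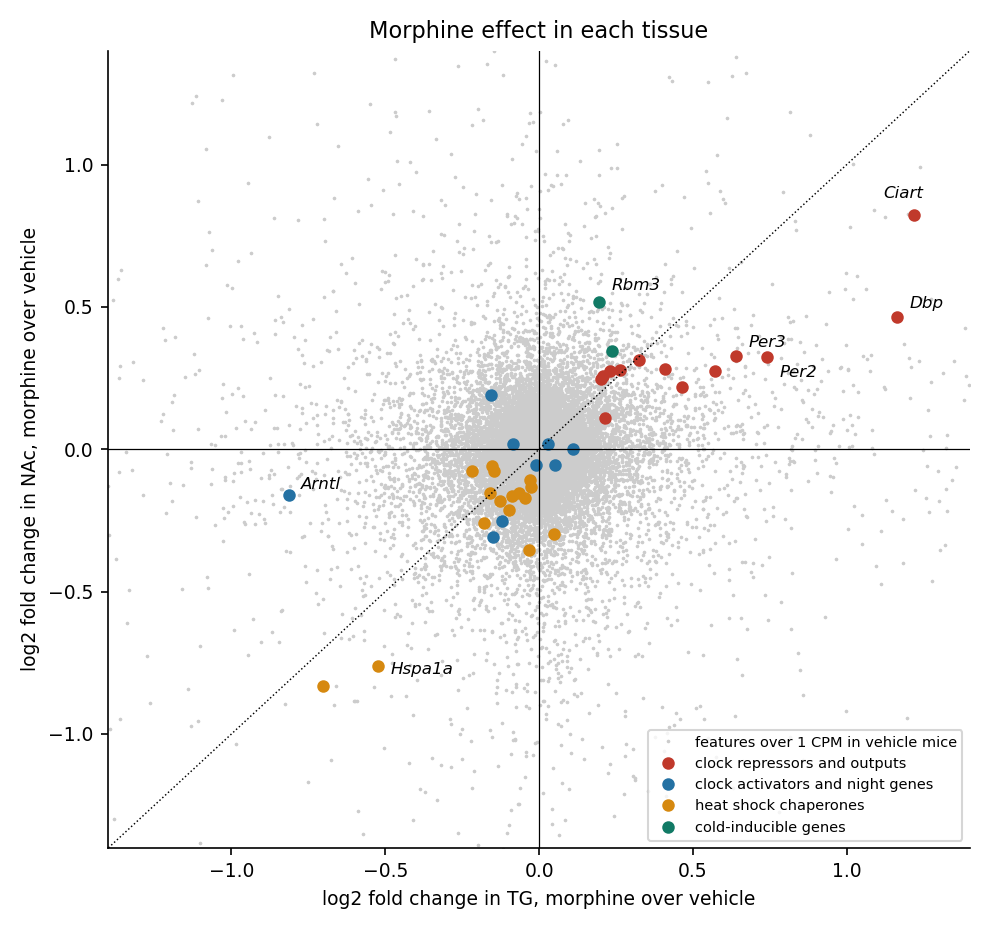
Log2 fold change of morphine over vehicle in TG (x axis) against NAc (y axis) for the 21014 features over 1 CPM in vehicle mice, with 4 gene lists in colour; 346 features lie outside the axes, and the dotted line marks equal effects. Clock repressors and outputs lie in the upper right, below the line where the TG effect was larger. Of the 16 chaperones 15 lie in the lower left.

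In the lower direction the both-tissue count named Col3a1, Cd93, Kansl1, Vegfa, Mcam, Rhoj, Mpzl1, Plat, Gm10863 and Hspa1a first. Col3a1 (gene 12825), the chain of type III collagen, had 91.3, 93.6, 98.8, 96.1 and 82.8 CPM in TG of V1 to V5 and 75.2, 60.003, 57.02, 69.1 and 51.2 in M1 to M5. In NAc it had 2.58, 2.33, 2.13, 2.63 and 2.09 CPM and 1.76, 1.67, 1.42, 1.64 and 1.8005. Neither tissue had an overlap, and the mean effect was -0.54 ± 0.07 (adjusted p = 0.0639, and 0.00174 in edgeR on 20 libraries). Cd93, a receptor of endothelial cells, had 15.1, 13.1, 14.7, 15.3 and 15.01 as the geometric mean CPM in V1 to V5 and 12.5, 11.3, 11.9, 12.3 and 10.5 in M1 to M5, again without overlap (-0.32 ± 0.06, adjusted p = 0.145). Vegfa, the growth factor of vessels, had -0.10 ± 0.03 in TG and -0.18 ± 0.04 in NAc (mean -0.14 ± 0.02, adjusted p = 0.0848), and Rhoj, a GTPase of endothelial cells, -0.35 ± 0.05 and -0.47 ± 0.14. The adhesion molecule gene Mcam (-0.24 ± 0.04), the plasminogen activator gene Plat (-0.20 ± 0.05) and Mpzl1 (-0.20 ± 0.04) had smaller effects, and the chromatin gene Kansl1 (-0.65 ± 0.12) and the predicted gene Gm10863 (-0.53 ± 0.10) larger ones.

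The marker lists of these cells were counted as well. Over all features 4.39% had an unadjusted p under 0.05 in the lower direction. Of 12 endothelial genes all 12 had a negative mean effect, 6 with an unadjusted p under 0.05, and the median was -0.11. The summed level of the list was 184 to 214 CPM in TG of vehicle and 174 to 192 in TG of morphine mice, and 206 to 236 and 189.9 to 206 in NAc. Beside Rhoj these were Cdh5 (-0.15 ± 0.03), Cldn5 (-0.34 ± 0.08), Kdr (-0.20 ± 0.06), Pecam1 (-0.17 ± 0.05) and Flt1 (-0.14 ± 0.05). Of 12 mural cell and fibroblast genes 11 were negative and 5 had an unadjusted p under 0.05, with Lum (-0.37 ± 0.08) and Dcn (-0.32 ± 0.09) beside Col3a1, Prelp and Col1a1 (-0.33 ± 0.11), and the sums were 1014 to 1148 and 844 to 1007 CPM in TG and 201 to 231 and 189.9 to 196 CPM in NAc. None of these passed the adjusted threshold in limma. In edgeR 2 endothelial genes (Cldn5 and Rhoj) and 2 of the fibroblast list (Col3a1 and Prelp) passed, in limma voom 2 and 1, and in DESeq2 4 and 4. Over all features edgeR called 36 lower, limma voom 36 and DESeq2 235. No member of either list was at 0 in any group.

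Fabp7, a fatty acid carrier of satellite glia in ganglia and of astrocyte lineage cells in brain, had 203, 177, 199, 203 and 199 CPM in TG of V1 to V5 and 137, 127, 111, 115 and 124 in M1 to M5. In NAc it had 15.3, 19.1, 16.4, 15.3 and 12.7 CPM and 10.4, 12.7, 8.09, 14.6 and 12.4. The TG groups were far apart and the NAc groups overlapped. The effects were -0.68 ± 0.06 and -0.45 ± 0.16, and the mean -0.57 ± 0.08 (adjusted p = 0.0721, and 0.00722 in edgeR on 20 libraries). Of 8 satellite glia genes 6 were negative, with sums of 3998 to 4691 and 3857 to 4300 CPM in TG. An unadjusted p under 0.05 was found for 3, all lower, against 4.39% of all features in that direction.

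Chaperones of the heat shock response, which refold proteins and are switched on by HSF1, lay on the negative side as a list. All 16 had a negative mean effect, and the median was -0.14, with -0.11 in TG and -0.17 in NAc. An unadjusted p under 0.05 was found for 13, against 4.39% of all features in the lower direction. In TG 15 of 16 and in NAc 16 of 16 were negative. The both-tissue count was met by 6, against 0.295% of all features in the lower direction. None passed the adjusted threshold in limma, edgeR or limma voom, and 6 did in DESeq2, which called 235 of all features lower. The count at an unadjusted p under 0.05 ran from 9 to 15 over the alternatives and was 10 without V2 and V5.

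Hspa1a, the inducible HSP70 gene, had 31.4, 21.8, 44.4, 23.3 and 32.1 CPM in TG of V1 to V5 and 21.98, 20.5, 21.1, 20.1 and 19.3 in M1 to M5. In NAc it had 12.4, 14.3, 22.7, 10.4 and 9.39 CPM and 8.32, 7.901, 9.07, 7.404 and 6.33. Vehicle mice scattered widely, with V3 highest in both tissues, and morphine mice lay close together below them, with M1 alone reaching the vehicle range in TG. The mean effect was -0.64 ± 0.17 (unadjusted p = 0.00398, adjusted p = 0.289). Its near-identical neighbour Hspa1b had -0.77 ± 0.23, and reads of the 2 cannot be kept fully apart in estimated counts. Among the other members the co-chaperone genes Bag3 (-0.19 ± 0.04), Stip1 (-0.15 ± 0.04) and Ahsa1 (-0.16 ± 0.04) had the smallest p.

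The promoter window of Hsph1 (chr5:149636287-149636586, minus strand, RefSeq, GRCm38.p6), the gene of a large HSP70 relative with a mean effect of -0.15 ± 0.07, is shown as one that holds the heat shock element (GAA, TTC and GAA again, with 2 free bases between them), searched on both strands and in capitals as its reverse complement.
Hsph1: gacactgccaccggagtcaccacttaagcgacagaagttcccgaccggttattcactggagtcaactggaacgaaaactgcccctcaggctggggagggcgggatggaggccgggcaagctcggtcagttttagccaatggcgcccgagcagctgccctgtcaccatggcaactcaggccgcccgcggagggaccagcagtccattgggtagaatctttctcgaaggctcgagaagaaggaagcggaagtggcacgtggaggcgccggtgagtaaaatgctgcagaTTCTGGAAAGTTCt
The element occurred in windows of 4 of the 13 chaperone genes with one (Chordc1, Hspd1, Hspe1 and Hsph1), against 0.662% of all genes with one.

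The 2 cold-inducible RNA-binding proteins, whose genes rise when cells cool, had positive effects. Rbm3 had 159, 164, 142, 144 and 129.5 CPM in TG of V1 to V5 and 173, 176, 168, 164 and 161 in M1 to M5. In NAc it had 104, 97.9, 95.8, 91.9 and 62.5 CPM and 136, 129, 136, 134 and 106. The NAc groups did not overlap and the TG groups did, and the mean effect was 0.36 ± 0.09 (unadjusted p = 0.00321, adjusted p = 0.274). Cirbp had 34.5, 36.99, 28.4, 31.8 and 23.8 as the geometric mean CPM in V1 to V5 and 38.2, 36.2, 37.9, 38.9 and 36.9 in M1 to M5, with V2 inside the morphine range, and an effect of 0.29 ± 0.10 (unadjusted p = 0.0192). V5 was the lowest vehicle mouse for both genes in both tissues. In limma, edgeR and limma voom 0 of the 2 passed after adjustment, and in DESeq2 1 did (Rbm3).

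Of 15 genes of the endoplasmic reticulum stress response 12 were negative, with a median of -0.14. An unadjusted p under 0.05 was found for 5, against 4.39% of all features in the lower direction. These 5 were the chaperone and folding genes Hsp90b1 (-0.20 ± 0.06), Hspa5 (-0.24 ± 0.09), Pdia6 (-0.20 ± 0.07), Creld2 (-0.18 ± 0.07) and Calr (-0.17 ± 0.07). Hsp90b1 had 431, 452, 475, 446 and 545 in V1 to V5 and 390.4, 406, 412, 398 and 427 in M1 to M5, with V5 far above the rest. The transcription factors of the response, Atf4 (-0.01 ± 0.05) and Ddit3 (-0.08 ± 0.06), had effects near 0. The count was 2 to 9 over the alternatives and 4 without V2 and V5. In limma, edgeR or limma voom 0 passed the adjusted threshold, and 3 did in DESeq2, which called 235 of all features lower.

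**Figure D5:**
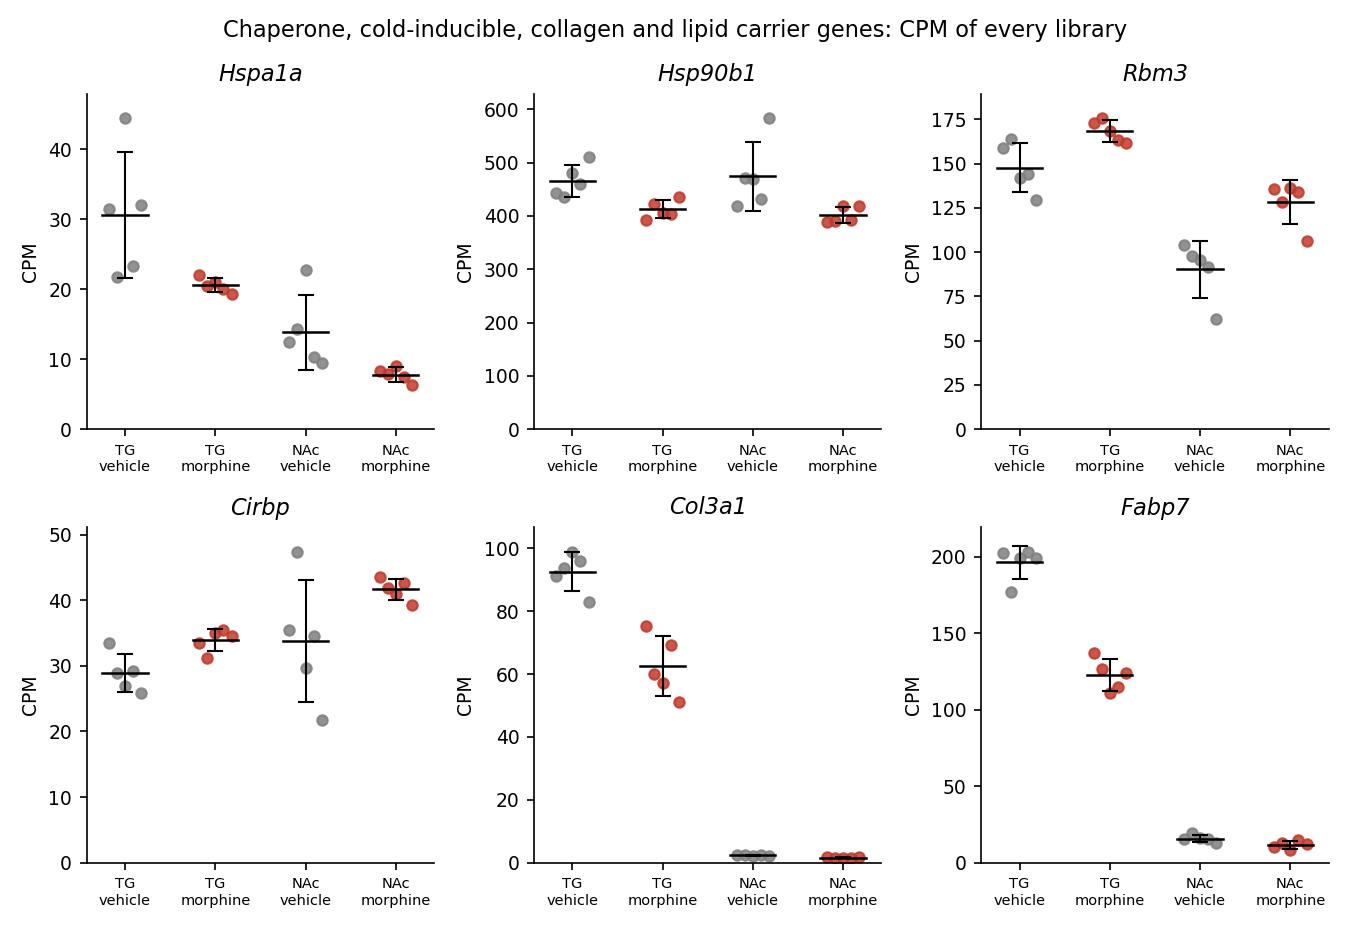
CPM (y axes, from 0) of Hspa1a, Hsp90b1, Rbm3, Cirbp, Col3a1 and Fabp7 in the 5 libraries of each of the 4 groups (x axes), with grey points for vehicle, red points for morphine and black lines for the mean ± SD. Morphine libraries of Hspa1a and Hsp90b1 lie below the vehicle range in NAc and, but for 1 library of each gene, in TG, and Col3a1 and Fabp7 stand far higher in TG than in NAc.

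Glucocorticoid targets, which connect stress hormone and clock, were mixed. Of 18 genes 10 were positive and 8 negative, and the median was 0.05. An unadjusted p under 0.05 was found for 4, all higher (Fkbp5, Plin4, Hif3a and Per1), against 4.26% of all features in that direction. Plin4, a lipid droplet coat gene, had 5.92, 7.73, 7.38, 8.06 and 6.096 as the geometric mean CPM in V1 to V5 and 7.897, 10.1, 11.5, 15.6 and 16.99 in M1 to M5. M1 lay within the vehicle range and M4 and M5 well above it, and the effects were 1.02 ± 0.22 in TG and 0.53 ± 0.21 in NAc. Hif3a had 0.69 ± 0.18 and 0.11 ± 0.15. None of the list passed in limma, 2 (Fkbp5 and Plin4) passed in edgeR and in DESeq2, and 1 (Fkbp5) in limma voom.

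Targets of PPAR factors, which switch on fat use in fasting, were negative in 14 of 15 genes with a median of -0.13, 5 with an unadjusted p under 0.05. Over all features 4.39% had one in the lower direction and 4.26% in the higher. Among the 5 were Fabp7, the glucose-sensitive gene Txnip (-0.28 ± 0.08), Angptl4 (-0.35 ± 0.11), an inhibitor of lipoprotein lipase, and the droplet coat gene Plin2 (-0.42 ± 0.15). Angptl4 had -0.72 ± 0.11 in TG and 0.02 ± 0.24 in NAc, so its mean came from TG. Targets of FOXO factors, which insulin holds down, had a positive mean effect in all 12 genes, with a median of 0.06. Only 5 of the 12 were positive in both tissues, with 4 negative in TG and 3 negative in NAc. Of the 12, 2 had an unadjusted p under 0.05, Insr (0.10 ± 0.03) and Sesn3 (0.20 ± 0.07). In limma 0 of either list passed after adjustment. In edgeR and limma voom 2 of the PPAR list (Fabp7 among them) and 0 of the FOXO list did, and in DESeq2 3 and 1. Over all features DESeq2 called 230 higher and 235 lower.

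Of 9 opioid receptor, peptide and peptidase genes 8 were tested, 6 positive and 2 negative. An unadjusted p under 0.05 was found for 3, all higher, against 4.26% of all features in that direction. Oprm1, the receptor at which morphine acts, had 1.47, 1.19, 1.03, 1.35 and 1.32 as the geometric mean CPM in V1 to V5 and 2.01, 1.69, 1.67, 1.52 and 1.66 in M1 to M5. The groups were just apart at low level, and the effects were 0.66 ± 0.20 in TG and 0.20 ± 0.14 in NAc (mean 0.43 ± 0.12, adjusted p = 0.297). Oprk1, the dynorphin receptor (0.19 ± 0.06), and Mme, the enkephalin-degrading enzyme neprilysin (0.22 ± 0.07), were the others, and their mice overlapped. Pdyn (0.29 ± 0.15), Pomc (0.55 ± 0.63), Oprl1 (-0.09 ± 0.13), Pnoc (-0.23 ± 0.40) and Oprd1 (0.01 ± 0.09) had an unadjusted p over 0.05. V2 held 3.55 CPM of Pnoc against 0.642 to 0.965 in the other vehicle mice and 43.2 CPM of Oprl1 against 24.2 to 30.6. Without V2 the effects were 0.19 for Pnoc, 0.03 for Oprl1 and -0.07 for Oprd1, so that each changed sign. In limma, edgeR and limma voom 0 of the list passed after adjustment, and in DESeq2, which called 230 of all features higher, 2 did (Mme and Oprm1). Of 16 immediate early genes and of 16 genes of cAMP signalling, 0 had an unadjusted p under 0.05 in limma, and 0 were called in limma, edgeR, limma voom or DESeq2. Immediate early genes were positive in 15 of 16 in NAc (median 0.21) and negative in 12 of 16 in TG (median -0.07), and cAMP genes positive in 12 of 16 in NAc and negative in 9 of 16 in TG.

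Antigen presentation genes were mostly negative. Over all features 4.39% had an unadjusted p under 0.05 in the lower direction. Of 8 MHC class II genes 7 were negative and 4 had an unadjusted p under 0.05, Cd74 (-0.39 ± 0.07), H2-Eb1 (-0.37 ± 0.08), H2-Ab1 (-0.47 ± 0.14) and H2-Aa (-0.45 ± 0.15), with a list median of -0.38. In NAc they stood at 1.12 ± 0.2998, 0.511 ± 0.121, 0.389 ± 0.157 and 0.4604 ± 0.173 CPM in vehicle mice (mean ± SD, n = 5), and without V2 and V5 the count was 2. All 11 MHC class I genes were negative, 5 with an unadjusted p under 0.05, among them Tap2 (-0.14 ± 0.05), B2m (-0.16 ± 0.06) and Psmb9 (-0.44 ± 0.15), and the median was -0.14. Of 13 microglia and macrophage genes 9 were negative and 2 had an unadjusted p under 0.05 (C1qb, -0.33 ± 0.11, and Cx3cr1, -0.20 ± 0.08), with sums of 162 to 247 and 147 to 163 CPM in TG and 286 to 385 and 293 to 332 CPM in NAc. In limma, edgeR and limma voom 0 genes of these 3 lists passed after adjustment. In DESeq2, which called 235 of all features lower, 4 of MHC class II and 0 of the others did. The TG library of V2 had 30.1 CPM of C1qb against 10.9 to 12.1 in the other TG vehicle libraries, and 11.6 CPM of Cx3cr1 against 7.01 to 9.58. Without V2 the effects were -0.22 for C1qb (unadjusted p = 0.00205) and -0.17 for Cx3cr1 (unadjusted p = 0.0724). The part of these cells in the MHC values was not tested.

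Oligodendrocyte genes show the limit of a mean over tissues. Of 14, all were negative in NAc and 12 were positive in TG, so the median mean effect was -0.05. An unadjusted p under 0.05 was found for 3 (Ugt8a, -0.24 ± 0.04, Cnp, -0.10 ± 0.03, and Aspa, -0.12 ± 0.03), against 4.39% of all features in the lower direction. The myelin gene Mbp had -0.25 ± 0.05 in NAc and 0.03 ± 0.11 in TG. The summed level of the list was 4204 to 4956 CPM in NAc of vehicle and 3518 to 4158 in NAc of morphine mice, without overlap, and 4280 to 5536 and 4170 to 5981 CPM in TG.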

How the data were processed

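RNA-seq of 10 TG and 10 NAc libraries was used. The authors deposited expected counts, that is estimated counts per RefSeq transcript for 107185 transcripts, not normalised. Per the submitters' processing notes, kallisto 0.43 and mouse build GRCm38 were used, and the labels' protocols describe stranded mRNA libraries read from 1 end, whereas the design text says paired ends. Of the transcripts, 86608 (80.8%, 90.0% of counts) were matched to genes by RefSeq identifier in GRCm38.p6 and summed, and the rest, 9.06% to 9.15% of counts in TG and 10.8% to 11.2% in NAc, were kept as single features. The sums were rounded to whole numbers before every test. Reads that match several transcripts are divided among them by a model in such estimates, so near-identical copies are uncertain.

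Features had to pass filterByExpr in each tissue (27077 of 53518). CPM were scaled by TMM over all 20 libraries (edgeR 4.0.16, R 4.3.3), and log2 CPM used a prior count of 2, which understates changes of low genes. Mouse values, the mean log2 CPM of the 2 libraries of a mouse, were compared 5 against 5 with limma 3.58.1 (eBayes, trend and robust), with Benjamini-Hochberg adjustment over all features and a threshold of 0.05, all tests 2-sided. Tissue effects came from limma on the 10 libraries of a tissue, and the difference from TG minus NAc log2 CPM per mouse. DESeq2 1.42.0, edgeR and limma voom on 20 libraries, other scalings and filters, single transcripts and leaving out mice were alternatives. For the mean effect, edgeR and DESeq2 on 20 libraries had no term for the mouse. Scripts were checked on simulated counts.

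TG and NAc libraries were paired by the mouse codes in the labels. The deviations of a mouse in TG and NAc had correlations of -0.039 to 0.018 over 20998 features, and the consensus correlation was -0.005. Between replicate libraries the chi-square per feature was 12.3 to 137, where counting error alone gives about 1. P-values cover the spread between these mice. The comparison, its gene lists and the rule for named genes were chosen with earlier results of these data known. The rule takes up to 15 called genes per direction, filled to 5, all clock and opioid genes, up to 4 genes of each other list, up to 5 per direction of the difference, filled to 3, and up to 10 per direction of the both-tissue count. List members named beside these (Pecam1, Flt1, Col1a1, Hspa1b, Hsph1, Calr, Atf4, Ddit3 and Plin2) were chosen after their values were seen. Values of a few genes are not reported here, although list counts include them.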

Additional observations from a re-analysis of the deposited data

Results flagged for a closer look

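For 24 genes with values given per mouse and for the 2 list levels, each group of 5 mice was examined for a mouse whose distance to its nearest neighbour took up over 0.71 of the range of the group. Of 56 groups 6 had one, where chance gives about 1 in 20. Prelp was lowest in vehicle mouse V3, at a geometric mean of 13.7 CPM over both tissues. Fabp7 was lowest in morphine mouse M3, at 30.0 CPM. Rbm3 was lowest in morphine mouse M5, at 131 CPM, still above every vehicle mouse. Cd93 was lowest in vehicle mouse V2, at 13.1 CPM, the vehicle mouse nearest to the morphine group. The level of the 13 clock repressors and outputs in NAc was -0.2229 in vehicle mouse V2, below the other 4, and that of the 16 chaperones in NAc was -0.1402 in morphine mouse M3, above the other 4. The effects of TG and NAc were compared by a test of their difference, in which 0 of 27077 features passed an adjusted p of 0.05 in limma and 1632 had an unadjusted p under 0.05.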

How the results depend on the processing

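The number of features called for the mean effect was 8. It became 77 in edgeR and 465 in DESeq2 on 20 libraries and 74 in limma voom with the mouse as a random block. It was 33 among named genes alone (16 higher, 17 lower) and 20 with a mean of at least 1 CPM in each tissue (12 higher, 8 lower). With library size alone it was 14 (9 higher, 5 lower) and with single transcripts 4. It ran from 2 to 12 without 1 mouse at a time (2 without M1, M4 or V3). With the replicate number as a block, which the labels give no reason to pair (correlations of same-numbered morphine and vehicle mice 0.0002 to 0.117, and 3 of 10 mice highest with their own number), it was 0, with an adjusted p of 0.173 for Dbp, Ciart and Per3. It was 12 when the counts of a mouse were added up and 7 to 9 under 6 other alternatives (other size factors, filters and prior count) and without V2 and V5, a choice made after the data had been seen. The difference between tissues had 0 called features, 1 in edgeR with the mouse as a block, 1 without V2 and V5, 0 with the replicate block, and 0 to 5 without 1 mouse at a time.

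The both-tissue count was 163 in the same and 61 in opposite directions, 24 and 8 at an unadjusted p under 0.01, and 118 to 232 and 39 to 102 without 1 mouse at a time. In edgeR within each tissue it was 160, 64 higher and 96 lower. Of 2885 values of the named genes under the alternatives, 2662 kept their direction and side of the threshold, 137 passed it newly, 41 no longer passed, and 45 of 12 genes changed sign, each with an unadjusted p over 0.05. When the counts of a mouse were added up Prx became 0.02773 and Rorb 0.0710. In edgeR and in DESeq2 Gm15558 became -0.00370 and -0.00431, Npas2 -0.0108 and -0.0117, Oprd1 -0.0128 and -0.0137, and Rora 0.000562 and 0.000207. With library size alone Gm15558 became -0.000692 and Oprd1 -0.00343, and without V2 and V5 Gm6654 became 0.0424, Npas2 -0.129, Oprd1 -0.00938 and Pnoc 0.0641. Without 1 mouse at a time Arntl2 ran from -0.0764 to 0.00101, Atf4 from -0.0576 to 0.0199, Gm15558 from -0.0825 to 0.0498, Gm33320 from -0.0702 to 0.0156, Npas2 from -0.129 to 0.0701, Oprd1 from -0.0723 to 0.0740, Oprl1 from -0.181 to 0.0280, Pnoc from -0.429 to 0.187, Rora from -0.0584 to 0.0169 and Rorb from -0.128 to 0.0608. Dbp was called in 23 of 25 alternatives, Ciart in 24, Per3 in 21, Tef in 18, Nr1d2 in 16 and Abca8b in 7. Library size alone moved the median of all features to -0.00974. The list counts ran from 11 to 13 for the clock list, 6 to 7 for endothelial, 1 to 7 for fibroblast and 0 to 5 for MHC class II genes. The share of the other tissue's transcripts kept its direction and a p under 0.05 in all 12 alternatives tried. The cause of these shifts was not tested where the construction does not show it.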

Other observations

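Several gene groups had no or few members with an unadjusted p under 0.05 for the mean effect, where 8.65% of all features had one. Of 20 genes of cytosolic ribosomal proteins 0 had one, with 12 positive, and of 19 nuclear genes of oxidative phosphorylation 1 did, with a median of 0.01. Cholesterol synthesis genes were negative in 16 of 18 with 0 past an unadjusted 0.05, and interferon genes in 15 of 18 with 1. Of 10 NRF2 targets 1 passed an unadjusted 0.05, Osgin1, a growth inhibitor gene, with 0.54 ± 0.14 in TG and 0.52 ± 0.20 in NAc and mouse values that did not overlap. Sat1, which starts polyamine breakdown, had -0.42 ± 0.05 in TG and -0.07 ± 0.05 in NAc (mean -0.25 ± 0.04, adjusted p = 0.0848), whereas Phgdh, which opens the serine pathway, had 0.03 ± 0.06 and -0.30 ± 0.04. Of 9 p53 targets 0 had an unadjusted p under 0.05. Of 7 cytokine and NF-kB genes all were negative and 2 had one (Nfkb2, -0.13 ± 0.05, and Tnfaip3, -0.12 ± 0.05), and of 10 TLR4 signalling genes 1 did (Myd88, -0.18 ± 0.06).

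Of 21 genes of splicing and chromatin proteins with long messages 17 were positive. An unadjusted p under 0.05 was found for 8, all higher, against 4.26% of all features in that direction. Zbed6 (1.56 ± 0.19 in TG, 0.14 ± 0.18 in NAc), Zfp292 and Aff4 (0.82 ± 0.10 and -0.00 ± 0.16) had their effects in TG, and Luc7l2 (0.04 ± 0.03 and 0.13 ± 0.04) had small effects in both. Of 8 casein kinase and ubiquitin genes that set clock speed 2 passed an unadjusted 0.05, the deubiquitinase gene Usp2 (0.32 ± 0.08) and Csnk1e (0.11 ± 0.05).

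Markers of blood and of neighbouring tissue varied between mice. Over all features 4.26% had an unadjusted p under 0.05 for the mean effect in the higher and 4.39% in the lower direction. All 6 red cell genes tested were positive, 2 with an unadjusted p under 0.05 (Hba-a1, 0.60 ± 0.24, and Epb42, 0.44 ± 0.14), and the list summed to 384 to 694 CPM in TG of vehicle and 498 to 1557 in TG of morphine mice. Pituitary genes summed to 419.6 to 1437 and 462 to 1801 CPM in TG, with 0 of 7 tested past an unadjusted 0.05. In NAc the same list summed to 622 to 909 CPM in vehicle and 640 to 904 in morphine mice. Its member Scg2 held 153 to 196 CPM in TG and 480 to 708 in NAc. The sum is therefore not pituitary RNA alone. Of 4 choroid plexus and ependyma genes 2 were positive and 2 negative. Of these 4, Kl (0.39 ± 0.12) had an unadjusted p under 0.05, and 0 of 3 neutrophil and lymphocyte genes had one. Of 11 astrocyte genes 6 were positive and 5 negative, and 2 had one, both lower. Of 9 precursor genes 5 were positive and 4 negative, with a median of 0.13 in TG and -0.21 in NAc. Of these 9, 3 had one, 1 higher and 2 lower, among them Gpr17 (-0.30 ± 0.07) and Bcas1 (-0.20 ± 0.06). Of 11 hypoxia genes 2 had one, both lower, Vegfa and Ndrg1 (-0.16 ± 0.03). In edgeR on 20 libraries 4 genes of the lists described here passed for the mean effect, Sat1, Vegfa, Zbed6 and Zfp292.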
